A study of Mus musculus with 36 samples.

Results

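Cytochromes P450 of families 2, 3 and 4 are the large, duplicated P450 families of drug and fatty acid metabolism. Their transcripts were taken as every row whose gene name begins with Cyp2, Cyp3 or Cyp4 followed by a subfamily letter and a number. The rule found 82 of the 24883 rows of each deposited table, 50 in family 2, 9 in family 3 and 23 in family 4. Of these, 33 had a mean FPKM (fragments scaled to transcript length and library size) of at least 0.5 over all libraries and are described below, 19 in family 2, none in family 3 and 14 in family 4. The rule used names and the mean level over both diets, and no difference between groups.

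The kidneys came from male wild-type C57BL/6J mice under a cycle of 12 h light and 12 h dark. Free feeding on normal chow or on a high-fat diet began at 6 weeks of age, and the labels give 16 weeks for the harvest. Kidneys were collected at zeitgeber time (ZT, hours from lights on) 0, 4, 8, 12, 16 and 20, from 3 mice for each diet at each time, so that there are 12 groups and 36 libraries. The composition of the high-fat diet is not given in the sources used here.

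P450 enzymes are haem proteins of the endoplasmic reticulum that insert an oxygen atom into their substrate, with electrons passed on by the reductase Por. In the kidney, proximal tubule cells hold most of them. Some Cyp4a enzymes hydroxylate the end of the arachidonic acid chain. Their product constricts renal vessels and acts on tubular sodium transport, whereas Cyp2j and Cyp2c enzymes form epoxides of the same acid. The genes stand in tandem clusters whose neighbours can be nearly identical, so reads of one copy can be assigned to another.

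Relative depth, estimated from the size of the steps between low FPKM values, ranged from 0.337 to 1.449 between libraries, with a median of 1.056 under chow and 0.927 under the high-fat diet. All 13 proximal tubule markers checked were detected in every library, and their summed level was 54830 to 99390 FPKM under chow and 71870 to 95810 FPKM under the high-fat diet. Most of this sum is 1 gene, Kap, with a mean of 73310 FPKM under chow and 75220 FPKM under the high-fat diet. Transcripts of neighbouring tissue were also present. The summed level of 13 adipocyte markers was 403 to 3796 FPKM (median 1297) under chow and 182 to 1127 FPKM (median 459.5) under the high-fat diet, and 10 of the 13 fell while 1, Lep, rose. Adrenal transcripts stood high in 4 chow libraries (ZT0 replicate 5, ZT4 replicates 2 and 3, ZT16 replicate 4), where the adrenal hydroxylase Cyp21a1 exceeded 1 FPKM; 9 adrenal cortex markers summed to at most 3856 FPKM under chow and 4.67 FPKM under the high-fat diet. Of 8 liver markers, of interest because many P450s are abundant in liver, 7 were tested. Ttr rose by 1.42 ± 0.14 log2 (limma, adjusted p = 2.9e-08), Fgb fell, Cps1 was near 0, and Alb had a mean of 5.28 FPKM under chow and 5.34 FPKM under the high-fat diet. In bulk tissue, fewer cells of a type and less RNA per cell cannot be told apart. Replicates are separate mice by the design text. Deviations of same-numbered libraries of the 2 diets correlated between -0.254 and 0.232, with 5 of 12 pairs over 0.1.

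**Figure D1:**
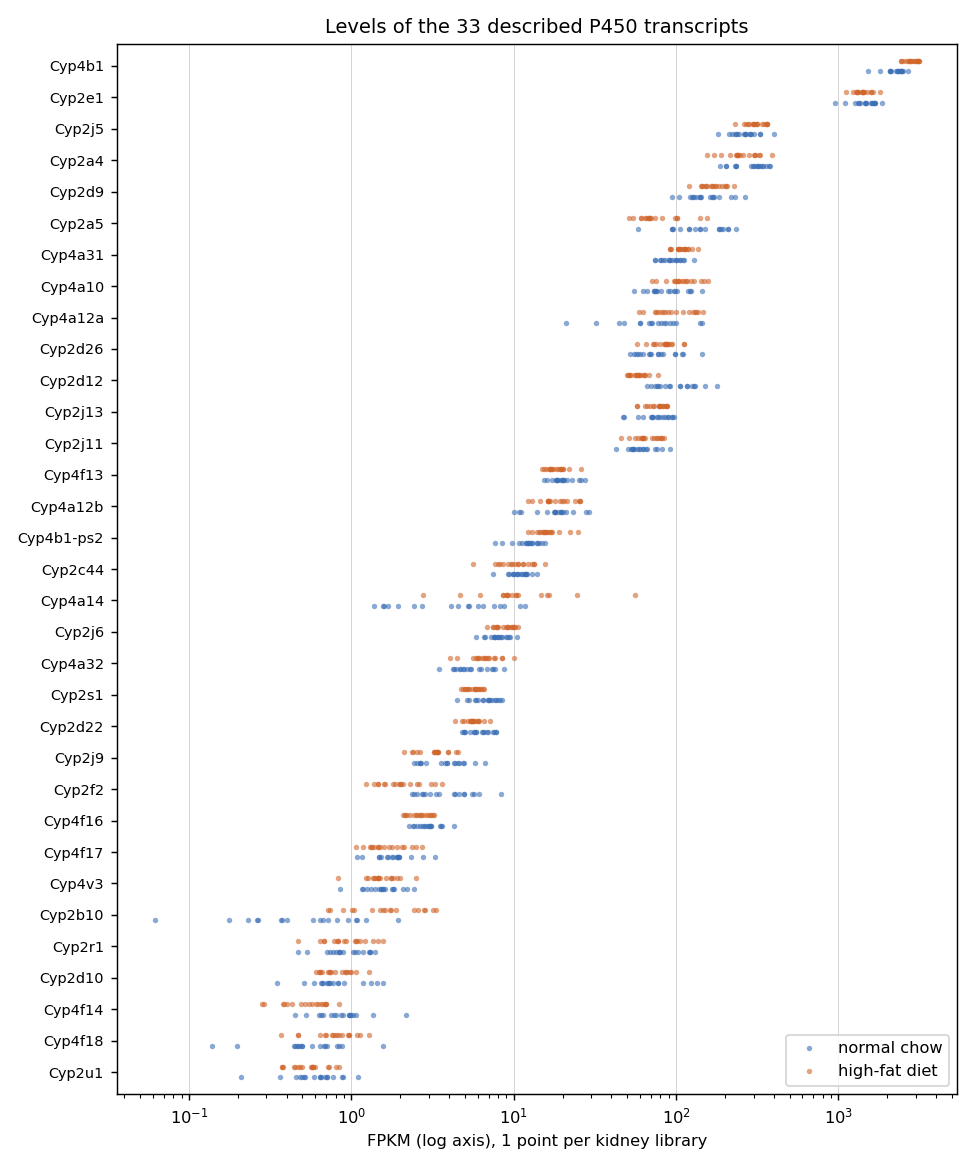
FPKM on a log axis of the 33 described P450 transcripts, 1 point per kidney library (18 per diet; blue normal chow, orange high-fat diet), ordered by mean level. Cyp4b1 and Cyp2e1 stand above the rest in every library, and Cyp4a14 and Cyp2b10 spread most widely between libraries.

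FPKM is per length, so levels can be compared between genes. Of the 33 described members, 8 had a mean of at least 100 FPKM, 9 lay between 10 and 100, 11 between 1 and 10, and 5 between 0.5 and 1. Cyp4b1, which hydroxylates medium-chain fatty acids and activates some toxic xenobiotics, was the most abundant, and the Cyp4b subfamily summed to 2558 FPKM. Cyp2e1, the P450 that oxidises ethanol and acetone, followed with 1444 FPKM. The Cyp2j, Cyp2a, Cyp2d and Cyp4a subfamilies summed to 442, 389, 334 and 324 FPKM. All 9 Cyp3a rows were near 0: the highest mean, that of Cyp3a13, was 0.131 FPKM, and Cyp3a11, the main Cyp3a gene of mouse liver, had 0.0317 FPKM. Of the 49 rows not described, 43 had a mean under 0.1 FPKM and 10 were listed at 0 in every library. The threshold fell between Cyp2u1 with 0.592 FPKM and Cyp4f15 with 0.439 FPKM.

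The first question was whether the high-fat diet changed the level of each transcript over the whole day. Of the 33 described members, 7 were higher and 6 were lower under the high-fat diet (limma on log2(FPKM + 0.5), mean of the 6 high-fat groups minus mean of the 6 chow groups, Benjamini-Hochberg adjusted p under 0.05 over 12431 genes). The shares over all genes tested were 5.14% higher and 10.8% lower. Higher were Cyp4b1, Cyp4b1-ps2, Cyp4a14, Cyp4a31, Cyp4f18, Cyp2j5 and Cyp2b10. Lower were Cyp2a5, Cyp2d12, Cyp2f2, Cyp2s1, Cyp2j9 and Cyp4f14. The median change of the 33 was 0.02 on the log2 scale, beside -0.03 over all genes tested, and 18 of the 33 (54.5%) had a change above 0, beside 38.9% of all genes. Log2 changes below are on the log2(FPKM + 0.5) scale and folds are of FPKM + 0.5, which understates the change of transcripts near or under 1 FPKM.

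**Figure D2:**
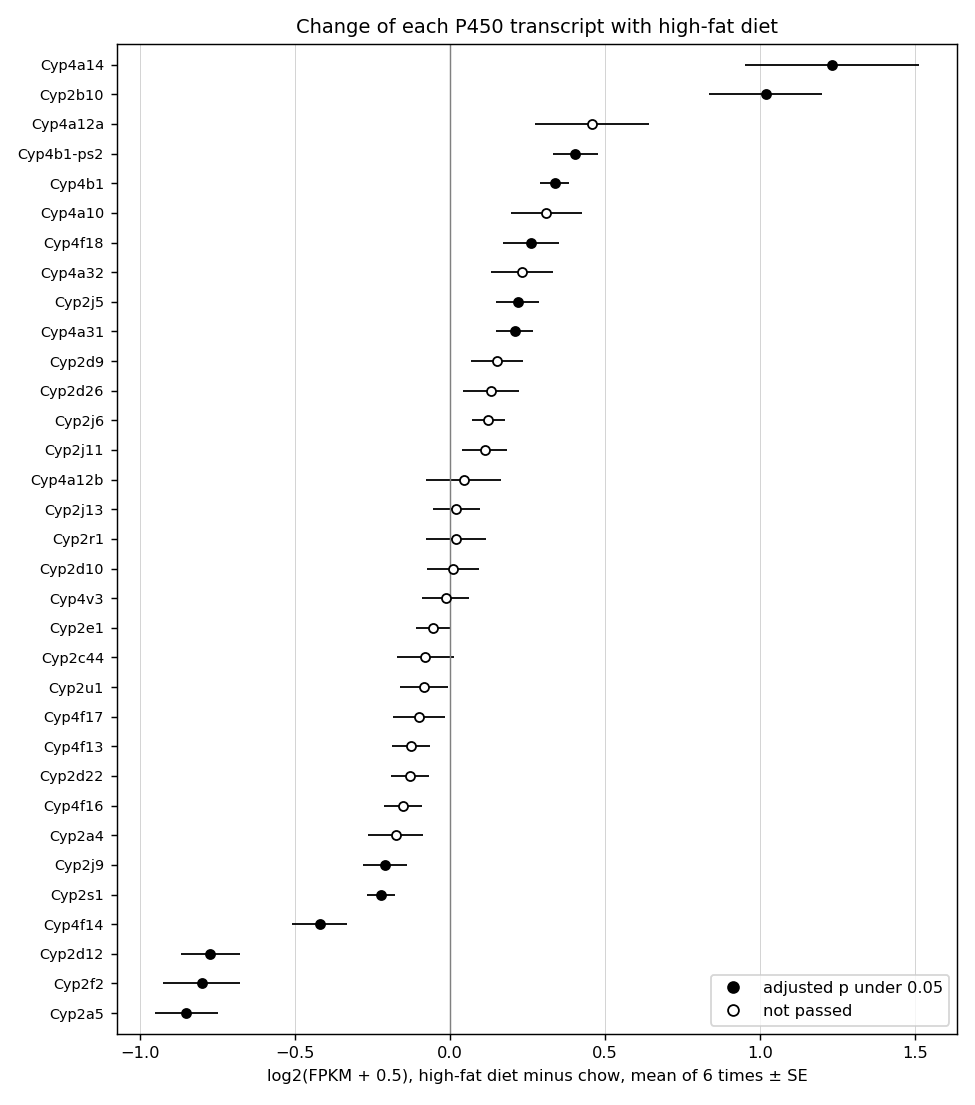
Difference in log2(FPKM + 0.5) between high-fat diet and chow, averaged over the 6 times, for each described P450 transcript (bars, standard error; 18 libraries per diet). Filled points passed an adjusted p of 0.05, 7 above 0 and 6 below. Cyp4a14 and Cyp2b10 lie farthest to the right, and Cyp2a5, Cyp2f2 and Cyp2d12 farthest to the left.

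The fatty acid hydroxylases of family 4 came first in level. Cyp4b1 ranged from 1520 to 2661 FPKM (median 2326) in the 18 chow kidneys and from 2416 to 3142 FPKM (median 2850) in the 18 high-fat kidneys. The groups overlapped little: 14 high-fat kidneys lay above the highest chow kidney, and 12 chow kidneys lay below the lowest high-fat kidney. The change was 0.34 ± 0.05 (SE) on the log2 scale, or 1.26-fold (limma, adjusted p = 5.3e-06), and it was above 0 at all 6 times. Its neighbour Cyp4b1-ps2, an unprocessed pseudogene, had a median of 12.3 FPKM under chow and 15.6 FPKM under the high-fat diet, and rose by 0.40 ± 0.07 (limma, adjusted p = 1.8e-04). Since 34.2% of the 50-base windows of this pseudogene occur exactly in Cyp4b1, which is far more abundant, fragments of Cyp4b1 could be counted there. The Cyp4b1 to Cyp4b1-ps2 ratio had a median of 181 under chow and 176 under the high-fat diet, a difference of -0.08 log2 that was below 0 at 3 of 6 times (permutation test of diet within times, p = 0.32, also adjusted over 6 ratios).

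The 6 described Cyp4a genes lie with Cyp4b1 on chromosome 4 of mm10 between 115299046 and 115647723. Cyp4a14 rose under the high-fat diet. Its level was 1.38 to 11.7 FPKM (median 4.88) under chow and 2.76 to 55.4 FPKM (median 9.49) under the high-fat diet. The ranges overlapped, with 5 high-fat kidneys above the highest chow kidney and 7 chow kidneys below the lowest high-fat kidney. The change was 1.23 ± 0.28 log2, or 2.35-fold (limma, adjusted p = 0.0026), and was above 0 at all 6 times. The 3 kidneys of a group differed widely. At ZT16 the high-fat kidneys held 55.4, 16.5 and 8.94 FPKM, while the chow kidneys held 5.21, 4.12 and 5.32 FPKM. At ZT0 the chow kidneys held 1.58, 11.7 and 1.57 FPKM and the high-fat kidneys 16.0, 10.3 and 8.54 FPKM. No single time passed the adjusted threshold for Cyp4a14. With the adipocyte markers' mean as a covariate the change was 0.69 ± 0.33 (limma, adjusted p = 0.24), and the part of fat tissue in it was not tested further.

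Cyp4a31 had 73.7 to 129 FPKM (median 93.0) under chow and 91.1 to 136 FPKM (median 109) under the high-fat diet. It rose by 0.21 ± 0.06 log2 (limma, adjusted p = 0.017), at 5 of 6 times, and 8 chow kidneys lay below the lowest high-fat kidney. With the adipocyte covariate the change was 0.13 ± 0.08 (limma, adjusted p = 0.36), and without the ZT0 and ZT4 libraries it was 0.11 ± 0.07 (adjusted p = 0.31). The 4 remaining Cyp4a genes did not pass. Cyp4a10, a classical target of the fatty acid receptor Ppara, had 55.04 to 144.7 FPKM (median 84.6) under chow and 71.2 to 158 FPKM (median 106) under the high-fat diet, with a difference of 0.31 ± 0.12 (limma, adjusted p = 0.064). It passed when libraries were rescaled by median ratio (limma, adjusted p = 0.049) or upper quartile (0.048). Cyp4a10 also passed in 6 of the 36 fits without 1 library, and without the libraries with the highest Cyp4a14 and the lowest Cyp2b10. Without the 4 libraries with adrenal transcripts it also passed, in a fit that left 1 chow library at ZT4. Cyp4a32 had a median of 5.28 FPKM under chow and 6.65 FPKM under the high-fat diet, with a difference of 0.23 ± 0.10 (limma, adjusted p = 0.11).

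Cyp4a12a, the androgen-dependent Cyp4a enzyme of male mouse kidney, had 20.9 to 145 FPKM (median 74.0) under chow and 59.3 to 147 FPKM (median 90.7) under the high-fat diet. The difference was 0.46 ± 0.18 log2 (95% interval 0.08 to 0.83, not adjusted, and limma adjusted p = 0.091). It passed with array weights and in 2 of the 36 fits without 1 library. The upper ends of the groups coincide, and 4 chow kidneys lie below the lowest high-fat kidney. Its copy Cyp4a12b had a median of 18.4 FPKM under chow and 17.4 FPKM under the high-fat diet, with a difference of 0.04 ± 0.12 (95% interval -0.20 to 0.29; adjusted p = 0.85). The transcripts are 98.3% identical and share 48.9% of the 50-base windows of Cyp4a12a, so their split is uncertain. The ratio of Cyp4a12a to Cyp4a12b had a median of 4.06 under chow and 5.27 under the high-fat diet (difference 0.41 log2, above 0 at 6 of 6 times, permutation test of diet within times, p = 2e-05, adjusted over 6 ratios 4e-05).

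**Figure D3:**
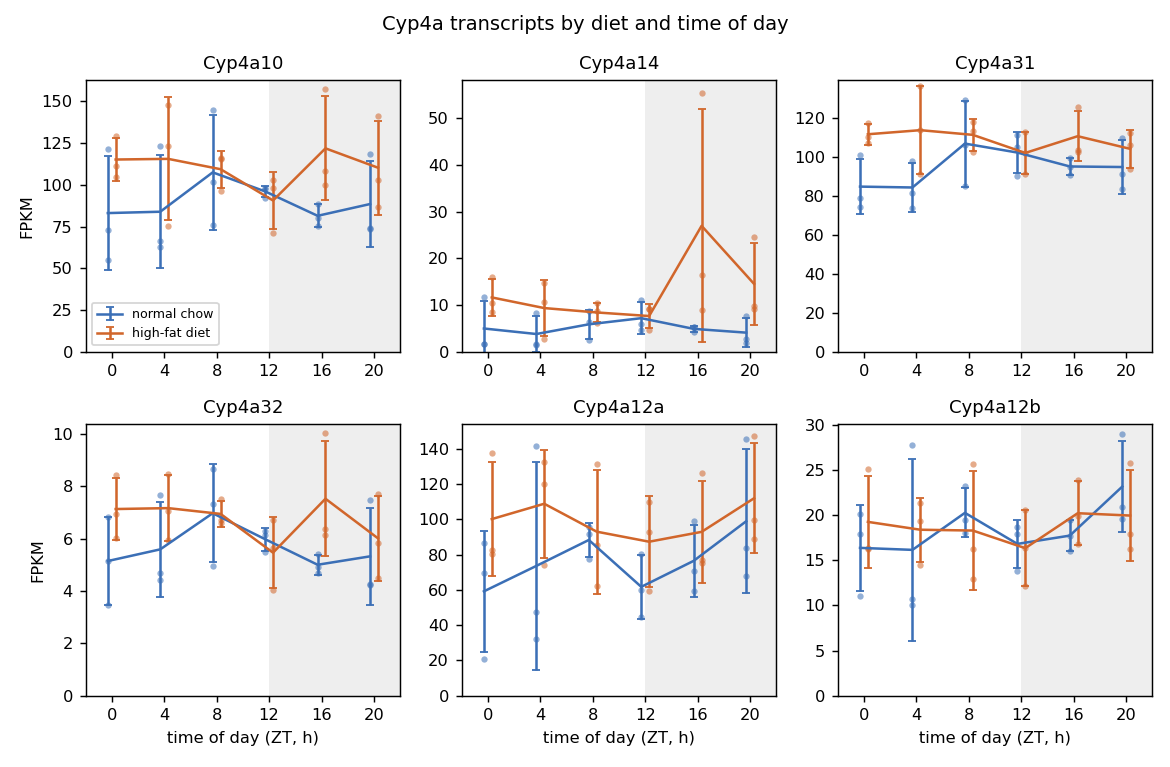
FPKM of the 6 described Cyp4a transcripts against time of day (points, single kidneys; lines and bars, mean and SD of 3; blue chow, orange high-fat diet; grey, dark phase from ZT12). Cyp4a14 reached 55.4 FPKM in 1 high-fat kidney at ZT16 and the error bars of the diets overlap for most genes and times.

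The Cyp4f and Cyp4v genes were less abundant. Cyp4f14, which inactivates the leukotriene LTB4, had 0.448 to 2.16 FPKM (median 0.875) under chow and 0.284 to 0.845 FPKM (median 0.561) under the high-fat diet, with 10 chow kidneys above the highest high-fat kidney. It fell by 0.42 log2 ± 0.09 (limma, adjusted p = 0.0012), at all 6 times. With the adipocyte covariate the fall was 0.32 log2 ± 0.11 (limma, adjusted p = 0.087). Cyp4f18, known as the neutrophil enzyme for the same leukotriene, had a median of 0.534 FPKM under chow and 0.805 FPKM under the high-fat diet and rose by 0.26 ± 0.09 (limma, adjusted p = 0.047). That call is at the limit: it was lost in 23 of the 36 fits that left out 1 library, with adjusted p up to 0.082. Of 6 immune cell markers 4 rose under the same diet, and the summed level of the 6 was 52.6 to 124 FPKM under chow and 62.5 to 123 FPKM under the high-fat diet; their part in the Cyp4f18 result was not tested. Both transcripts rest on few fragments, with an estimated median of 21.1 per library for Cyp4f14 and 15.8 for Cyp4f18. Cyp4f13, Cyp4f16, Cyp4f17 and Cyp4v3 did not pass, with differences between -0.15 and -0.01.

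The 5 described Cyp2j epoxygenases lie together on chromosome 4 between 96027534 and 96664154 and share at most 1.3% of their 50-base windows with any transcript, so their counts separate well. Cyp2j5, the main epoxygenase of the group in mouse kidney, had 180 to 398 FPKM (median 266) under chow and 230 to 364 FPKM (median 305) under the high-fat diet. It rose by 0.22 ± 0.07 log2 (limma, adjusted p = 0.031), and the difference was above 0 at 6 of 6 times. This call was not stable. It was lost in 4 of 17 alternative fits and in 6 of 36 fits without 1 library, while the lowest adjusted p of any fit was 5.1e-05 (limma). Without the 4 libraries with adrenal transcripts the change was 0.10 ± 0.05. That fit left 1 chow library at ZT4, replicate 4, which held 398 FPKM, the highest of all kidneys. Replicates 2 and 3, left out, held 180 and 238 FPKM. Chow ZT4 replicates 2 and 4 also had the highest and lowest slopes of log2 level on transcript GC content. These were 0.42 and -0.37 log2 per 10 points of GC. With the GC trend removed the level call of Cyp2j5 was kept, and Cyp2j5 also passed at ZT0. With the adipocyte covariate the change was 0.17 ± 0.09 (limma, adjusted p = 0.30). With the mean of 7 markers of the straight proximal tubule as covariate the change was 0.18 ± 0.08 (limma, adjusted p = 0.11). It was also lost, with adjusted p of at most 0.056, without any 1 of the chow libraries ZT0, ZT8, ZT16 or ZT20 replicate 5 or ZT12 replicate 3, or the high-fat library ZT4 replicate 3.

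Cyp2j9 moved the other way, from 2.42 to 6.64 FPKM (median 3.89) under chow to 2.12 to 4.52 FPKM (median 3.34) under the high-fat diet. It fell by 0.21 log2 ± 0.07 (limma, adjusted p = 0.040), at 6 of 6 times, and 6 chow kidneys lay above the highest high-fat kidney. The call lies at the limit. It was lost in 16 of the 36 fits without 1 library (adjusted p up to 0.070) and without the ZT0 and ZT4 libraries (-0.15 ± 0.07, adjusted p = 0.13). It was also lost without a filter (limma, adjusted p = 0.057), with libraries rescaled by median ratio (0.055) or upper quartile (0.071), with array weights (0.0505) and without the libraries with the highest Cyp4a14 and the lowest Cyp2b10 (0.054). Cyp2j13 had a median of 76.3 FPKM under chow and 78.7 FPKM under the high-fat diet (0.02 ± 0.08, 95% interval -0.13 to 0.18, adjusted p = 0.89). Cyp2j11 had medians of 59.8 and 63.6 FPKM (0.11 ± 0.07, adjusted p = 0.32), and Cyp2j6 had medians of 7.95 and 9.03 FPKM (0.12 ± 0.05, adjusted p = 0.12). Cyp2j6 passed when libraries were rescaled by median ratio (0.15 ± 0.05, limma, adjusted p = 0.036) or upper quartile (0.16 ± 0.05, adjusted p = 0.048). Cyp2c44, the epoxygenase named Cyp2c23 in GENCODE, had a median of 10.9 FPKM under chow and 10.4 FPKM under the high-fat diet (-0.08 ± 0.09, adjusted p = 0.61).

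Cyp2e1 showed no difference in level that passed the test. It ranged from 946 to 1849 FPKM (median 1476) under chow and from 1106 to 1792 FPKM (median 1403) under the high-fat diet, and only 3 of 36 kidneys lay outside the other group's range. The difference was -0.05 ± 0.06 log2 (95% interval -0.17 to 0.06; limma, adjusted p = 0.56).

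Among the P450s best known for drugs and steroids, Cyp2a5 and Cyp2d12 fell and Cyp2b10 rose. Cyp2a5, the coumarin hydroxylase, had 58.2 to 233.7 FPKM (median 140) under chow and 50.9 to 155 FPKM (median 68.6) under the high-fat diet. It fell by 0.85 log2 ± 0.10 (limma, adjusted p = 7.5e-07), and the difference was below 0 at all 6 times. At ZT12 the chow kidneys held 184, 208 and 151 FPKM and the high-fat kidneys 70.4, 102 and 68.0 FPKM, without overlap. Its neighbour Cyp2a4, a testosterone hydroxylase, had 187 to 376 FPKM (median 306) under chow and 155 to 392 FPKM (median 244) under the high-fat diet, a difference of -0.17 ± 0.09 (limma, adjusted p = 0.19). It passed with the straight tubule markers as covariate (-0.32 ± 0.08, adjusted p = 0.0056). The Cyp2a5 to Cyp2a4 ratio was 0.287 to 0.736 (median 0.499) under chow and 0.180 to 0.468 (median 0.300) under the high-fat diet, a difference of -0.68 log2 that was below 0 at 6 of 6 times (permutation test of diet within times, p = 1e-05, the smallest that 100000 permutations can give; adjusted over 6 ratios 3e-05).

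These neighbours show how close the copies are. Their transcripts are 98.3% identical, and 31.0% of the 50-base windows of Cyp2a5 occur exactly in Cyp2a4, so part of the split depends on how shared fragments were assigned. A stretch of 212 bases just upstream of each annotated start is printed because the ratio of the pair differed between diets while these stretches are nearly the same. Both are from RefSeq's GRCm38.p6, plus strand, 5′ to 3′, with capitals at the bases that differ.
Cyp2a4 (chr7:26306942-26307153): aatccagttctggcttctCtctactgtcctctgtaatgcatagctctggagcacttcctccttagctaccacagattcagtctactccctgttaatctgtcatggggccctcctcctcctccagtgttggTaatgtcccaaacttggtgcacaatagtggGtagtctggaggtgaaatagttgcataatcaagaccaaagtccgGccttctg
Cyp2a5 (chr7:26835089-26835300): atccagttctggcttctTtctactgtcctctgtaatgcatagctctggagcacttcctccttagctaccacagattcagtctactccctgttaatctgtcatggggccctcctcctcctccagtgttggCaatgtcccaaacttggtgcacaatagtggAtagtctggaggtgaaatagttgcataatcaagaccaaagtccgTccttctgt
Of 249 aligned promoter bases 245 are identical (98.4%), and the 4 substitutions are C19T, T131C, G161A and G205T, with the base of Cyp2a4 first and positions counted from 1 at the 5′ end of its stretch. The D-box, the motif bound by the clock-controlled factors Dbp, Tef and Hlf (searched as TTATGNAA on both strands, 250 bases before the start), occurs in both as its reverse form at bases 181 to 188 of the Cyp2a4 stretch and 180 to 187 of the Cyp2a5 stretch. It was found in 4 of the 22 members with a promoter entry (Cyp2a4, Cyp2a5, Cyp2b10, Cyp4f14), beside 3.07% of all 32851 promoters of the same length. The member count takes a match in any entry of a gene, whereas the share is over single entries. Cyp4f14 has several entries, not all of which hold the motif. Cyp2a4 and Cyp2a5 are nearly the same sequence, so their matches are not separate ones, and a match of letters shows no binding.

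Cyp2d12 separated the diets most cleanly. It had 66.0 to 178 FPKM (median 98.8) under chow and 49.95 to 77.7 FPKM (median 57.8) under the high-fat diet, and 16 of 18 high-fat kidneys lay below the lowest chow kidney. It fell by 0.77 log2 ± 0.10 (limma, adjusted p = 1.2e-06), at 6 of 6 times. The spread also differed in size, with a coefficient of variation of 29.5% under chow and 11.9% under the high-fat diet. The testosterone hydroxylase Cyp2d9, 91.5% identical in the aligned part of its transcript, had medians of 141 and 168 FPKM, a difference of 0.15 ± 0.08 (limma, adjusted p = 0.24). The ratio of Cyp2d12 to Cyp2d9 had a median of 0.631 under chow and 0.344 under the high-fat diet, a difference of -0.93 log2, below 0 at 6 of 6 times (permutation test of diet within times, p = 1e-05; adjusted over 6 ratios 3e-05). Cyp2d26, Cyp2d22 and Cyp2d10 did not pass, with differences of 0.13, -0.13 and 0.01. These ratios were chosen after the values had been seen.

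Cyp2b10, the best-known target of the xenobiotic receptor Nr1i3 (CAR), was low but rose. It had 0.0617 to 1.95 FPKM (median 0.613) under chow and 0.716 to 3.32 FPKM (median 1.67) under the high-fat diet. No high-fat kidney lay as low as the lower 12 of the 18 chow kidneys, and 6 high-fat kidneys lay above the highest chow kidney. The change was 1.02 ± 0.18 log2, or 2.03-fold (limma, adjusted p = 1.9e-04), above 0 at 6 of 6 times. The estimated number of fragments per library was 1.99 to 102 (median 26.4), so single values are imprecise. Its promoter is printed for its D-box, in capitals, at bases 193 to 200 of the stretch (RefSeq, GRCm38.p6, plus strand).
Cyp2b10 (chr7:25897408-25897619): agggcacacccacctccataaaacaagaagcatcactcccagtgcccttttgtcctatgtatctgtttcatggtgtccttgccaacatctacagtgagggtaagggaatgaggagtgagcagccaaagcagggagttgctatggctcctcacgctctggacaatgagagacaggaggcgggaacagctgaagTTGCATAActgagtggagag

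Cyp2f2, which activates naphthalene in the airway, had 2.35 to 8.37 FPKM (median 3.86) under chow and 1.22 to 3.59 FPKM (median 1.98) under the high-fat diet. It fell by 0.80 log2 ± 0.12 (limma, adjusted p = 3.2e-05), at 6 of 6 times, and 13 high-fat kidneys lay below the lowest chow kidney. Cyp2s1, a P450 of epithelia outside the liver, had 4.499 to 8.43 FPKM (median 6.92) under chow and 4.74 to 6.52 FPKM (median 5.78) under the high-fat diet. It fell by 0.22 log2 ± 0.04 (limma, adjusted p = 7.3e-04), at 6 of 6 times. Cyp2r1, a vitamin D hydroxylase, and Cyp2u1, a fatty acid hydroxylase, did not pass, with means under 1 FPKM in both diets and differences of 0.02 and -0.08.

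At single times, with 3 kidneys a group, few members passed. Cyp4b1, Cyp4b1-ps2 and Cyp4f14 passed at ZT0, 3 of 33 beside 1.50% of all genes tested. Cyp4b1 and Cyp4b1-ps2 passed at ZT4, 2 of 33 beside 1.65%. Cyp2a5 and Cyp2d12 passed at ZT8 (0.314% of all genes) and again at ZT12 (0.346%). At ZT12 Cyp2a5 differed by -1.18 ± 0.25 log2 (limma, adjusted p = 0.027) and Cyp2d12 by -1.02 ± 0.23 (limma, adjusted p = 0.048). No member passed at ZT16 (0.499% of all genes) or ZT20 (0.225%). Without adjustment, limma gave a p under 0.05 to 8 of 33 members at ZT16, where 907 of the 12431 genes tested had one. At ZT20 it did so for 4 of 33 members and 794 of the 12431 genes. Whether the diet difference varied over the day was tested in the same model, and no member passed, beside 0.0161% of all genes. In that limma test 1 of 33 members, Cyp4b1-ps2, had an unadjusted p under 0.05, beside 356 of the 12431 genes. So the times at which a member passed are not shown to differ from those at which it did not.

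The second question was the daily rhythm within each diet, fitted as a cosine and a sine of 24 h over 18 libraries. Under chow 5 of 33 members were rhythmic, Cyp2e1, Cyp2a5, Cyp2j9, Cyp2s1 and Cyp4f17, beside 6.97% of all genes tested. Under the high-fat diet 3 were, Cyp2j9, Cyp2s1 and Cyp2f2, beside 6.48%. Cyp2j9 and Cyp2s1 passed in both.

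Cyp2j9 passed for rhythm under both diets. Under chow its 3 kidneys held 5.74, 4.89 and 4.93 FPKM at ZT8 and 2.67, 2.66 and 2.42 FPKM at ZT20, without overlap. The fitted peak-to-trough difference was 0.88 ± 0.15 log2 with a peak at ZT 7.2 ± 0.65 (limma, adjusted p = 0.0037). Under the high-fat diet the same times held 4.52, 3.28 and 3.95 FPKM and 2.12, 2.55 and 2.36 FPKM, with a peak-to-trough difference of 0.57 ± 0.12 log2 and a peak at ZT 8.8 ± 0.78 (limma, adjusted p = 0.013). The chow rhythm held in all 36 fits without 1 library but was not called with time as a factor. The high-fat rhythm was not called with the replicate block (0.64 ± 0.15 log2, limma, adjusted p = 0.056), or with the block and the GC trend removed (0.47 ± 0.15 log2, adjusted p = 0.14).

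Cyp2a5 peaked at ZT 12.9 ± 0.77 under chow with a peak-to-trough difference of 1.11 ± 0.22 log2, or 2.16-fold (limma, adjusted p = 0.012). At ZT4 its chow kidneys held 95.05, 58.2 and 93.7 FPKM and at ZT8 233.7, 190 and 195 FPKM. Under the high-fat diet the fitted difference was 0.66 ± 0.24 log2 (limma, adjusted p = 0.22), with 54.5, 60.7 and 50.9 FPKM at ZT4 and 81.8, 140 and 73.7 FPKM at ZT8. Without ZT0 and ZT4 the chow rhythm did not pass (0.65 ± 0.19, adjusted p = 0.14).

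Cyp2e1 varied by 0.48 ± 0.11 log2 from peak to trough under chow, with a peak at ZT 11.8 ± 0.92 (limma, adjusted p = 0.038). Its chow kidneys held 1342, 946 and 1100 FPKM at ZT0 and 1849, 1615 and 1592 FPKM at ZT8. Under the high-fat diet the fitted difference was 0.09 ± 0.11 log2 (limma, adjusted p = 0.87), with 1431, 1328 and 1414 FPKM at ZT0 and 1106, 1792 and 1504 FPKM at ZT8. The chow call was lost without any 1 of 11 chow libraries (adjusted p up to 0.091), without ZT0 and ZT4 (0.21 ± 0.10, adjusted p = 0.49) and without the 4 libraries with adrenal transcripts (0.47 ± 0.13, adjusted p = 0.10).

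Cyp2s1 peaked at ZT 6.9 under chow (0.47 ± 0.12 log2, limma, adjusted p = 0.048) and at ZT 5.8 under the high-fat diet (0.29 ± 0.07 log2, adjusted p = 0.046). Both calls lie at the limit and were lost without any 1 of 14 chow or 15 high-fat libraries (adjusted p up to 0.10). Cyp4f17 peaked at ZT 3.2 under chow (0.61 ± 0.15 log2, limma, adjusted p = 0.038), a call lost without any 1 of 12 chow libraries. Without ZT0 and ZT4 its chow rhythm did not pass (0.39 ± 0.24, limma, adjusted p = 0.68). Under the high-fat diet its fitted difference was 0.43 ± 0.17 (adjusted p = 0.29). Cyp2f2 peaked at ZT 2.0 ± 0.79 under the high-fat diet (0.76 ± 0.16 log2, limma, adjusted p = 0.015), from 3.26, 2.61 and 2.55 FPKM at ZT0 to 1.47, 1.45 and 1.62 FPKM at ZT12. Without ZT0 and ZT4 its high-fat rhythm did not pass (0.78 ± 0.31, limma, adjusted p = 0.38). Under chow its fitted difference was 0.57 ± 0.28 (adjusted p = 0.41), with 5.73, 2.78 and 4.32 FPKM at ZT0 and 2.43, 4.27 and 5.57 FPKM at ZT12. Of the 4 members with a D-box, Cyp2a5 under chow was the only one past the threshold for rhythm.

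**Figure D4:**
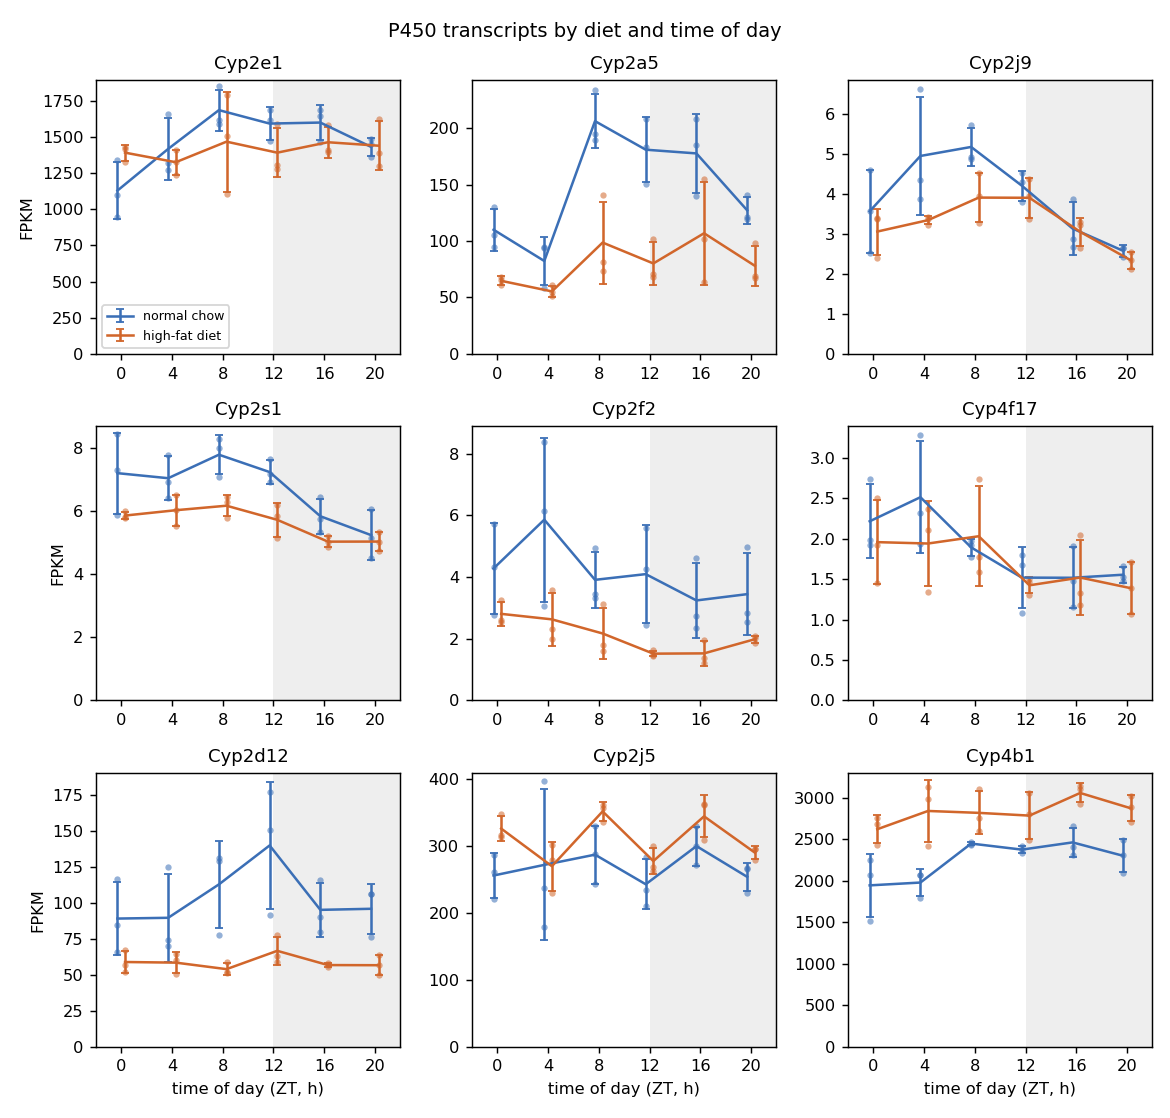
FPKM of 9 P450 transcripts against time of day (points, single kidneys; lines and bars, mean and SD of 3; blue chow, orange high-fat diet; grey, dark phase from ZT12). Cyp2a5 and Cyp2d12 lie lower and Cyp4b1 lies higher under the high-fat diet at every time, and Cyp2j9 falls from ZT8 to ZT20 in both diets.

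The difference in rhythm between the diets was tested directly, as the interaction of diet with the cosine and sine terms. No member passed, beside 0.0322% of all genes. An unadjusted p under 0.05 was reached in limma by 2 of 33 members, Cyp4b1-ps2 and Cyp2e1, and by 414 of the 12431 genes tested. A rhythm that passed in 1 diet only is therefore not shown to differ between diets for Cyp2e1, Cyp2a5, Cyp4f17 or Cyp2f2. The fitted peak-to-trough difference was smaller under the high-fat diet in 27 of 33 members (81.8%), beside 61.8% of all genes. Its median among the members was 0.41 log2 under chow and 0.23 under the high-fat diet, beside 0.24 and 0.19 over all genes. The 33 share libraries, so these counts are a description.

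Members also varied together between kidneys of the same diet, seen over 18 kidneys per diet in 42 relations among the 6 Cyp4a genes and Cyp2b10, chosen after the values had been seen (two-sided permutation tests on log2 values, p adjusted over the 42). Cyp4a10 and Cyp4a14, which share almost no 50-base window (0.2% of Cyp4a14 with any transcript), varied together. Pearson's r was 0.88 under chow (p = 1e-05, adjusted 4.7e-05; Spearman's rho 0.928, p = 1e-05, adjusted 0.00014; r 0.884 without the 2 kidneys farthest from the median) and 0.862 under the high-fat diet (p = 1e-05, adjusted 4.7e-05; rho 0.818, p = 8e-05, adjusted 0.00034; r 0.827 without 2). Of p-values here, 1e-05 is the smallest that the permutations can give. The high-fat ZT16 kidney with 55.4 FPKM of Cyp4a14 also had the highest Cyp4a10 of all kidneys, 158 FPKM. Correlations of Cyp4a10 with Cyp4a31 (r 0.896 and 0.923) and Cyp4a32 (r 0.947 and 0.886) were as strong, but 95.7% and 97.2% transcript identity means that shared fragments can add to them.

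Cyp4a12a and Cyp2b10, on different chromosomes, also varied together. Pearson's r was 0.705 under chow (p = 0.0011, adjusted 0.003; rho 0.655, p = 0.0038, adjusted 0.0088; r 0.639 without 2) and 0.782 under the high-fat diet (p = 0.00023, adjusted 0.00074; rho 0.783, p = 0.00024, adjusted 0.00087; r 0.711 without 2). After subtracting each time's mean, r was 0.786 and 0.891. The chow ZT0 replicate 4 kidney had the lowest value of both, 20.9 FPKM of Cyp4a12a and 0.0617 FPKM of Cyp2b10, and the highest chow value of Cyp4a14, 11.7 FPKM. The chow ZT20 replicate 3 kidney stood at the other end with 145 FPKM of Cyp4a12a, 1.95 FPKM of Cyp2b10 and 1.93 FPKM of Cyp4a14. Cyp4a14 and Cyp2b10 ran in opposite directions under chow, with r -0.751 (p = 0.00036, adjusted 0.0011; rho -0.709, p = 0.0015, adjusted 0.0044; r -0.817 without 2). Under the high-fat diet r was -0.467 and did not pass (p = 0.046, adjusted 0.07; rho -0.472, p = 0.051, adjusted 0.085; r -0.445 without 2). For Cyp4a14 and Cyp2b10, r after subtracting each time's mean was -0.763 under chow and -0.564 under the high-fat diet. Other Cyp4a genes also ran against Cyp2b10 under the high-fat diet. There r was -0.577 for Cyp4a31 (permutation test, adjusted p = 0.026), -0.523 for Cyp4a32 (0.042, but 0.15 for rho) and -0.503 for Cyp4a10 (0.055). Whether these relations differ between diets was not tested. Cyp4a14 and Cyp2b10 were both higher under the high-fat diet, so their relation between kidneys of 1 diet runs against the difference between diets.

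**Figure D5:**
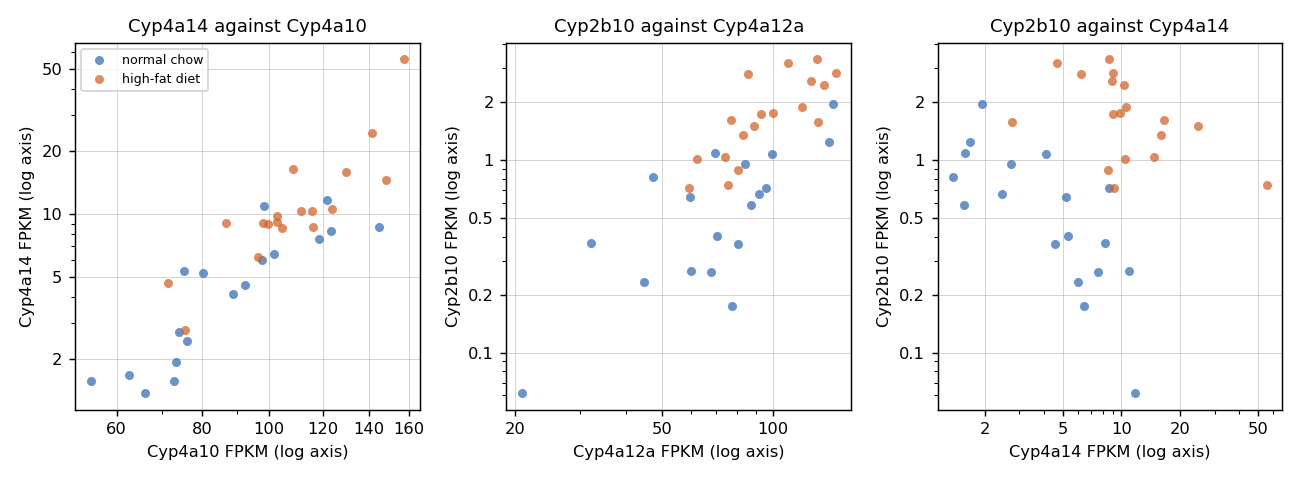
Pairs of P450 transcripts in each kidney, FPKM on log axes, 18 kidneys per diet (blue chow, orange high-fat diet). Cyp4a14 increases with Cyp4a10 and Cyp2b10 increases with Cyp4a12a within each diet. Cyp2b10 decreases with Cyp4a14, with r -0.751 under chow and -0.467, not past the threshold, under the high-fat diet.

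Genes around the P450 system were taken as lists chosen with earlier results of these data known. Of 17 genes for electron donors and haem supply, none rose and 3 fell: the haem oxygenase Hmox1 (34.6 to 27.3 FPKM in the mean, -0.32 ± 0.06, limma, adjusted p = 4.4e-04), Cyb5b (-0.14 ± 0.04, adjusted p = 0.014) and Hmox2 (-0.11 ± 0.04, adjusted p = 0.040). The reductase Por had a mean of 171 FPKM under chow and 172 FPKM under the high-fat diet, without a difference that passed (adjusted p = 0.94). It was rhythmic in both diets. Of 22 nuclear receptors and transcription factors, 19 were tested, 4 rose and 2 fell. Ppara rose from a mean of 8.24 to 10.2 FPKM (0.28 ± 0.07, limma, adjusted p = 0.0080). Hlf rose by 0.22 ± 0.06 (adjusted p = 0.010), Tef also rose, and Esrra fell. The xenobiotic receptor Nr1i2 fell from 2.95 to 2.00 FPKM (-0.44 ± 0.08, adjusted p = 2.3e-04). Nr1i3 lay under the filter.

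Of 24 other Ppara target genes 22 were tested, 5 rose and none fell, with a median change of 0.08. The pantetheinase Vnn1 rose by 0.37 ± 0.06 (limma, adjusted p = 4.6e-05), and the mitochondrial enzymes Cpt2 (0.19 ± 0.04, adjusted p = 6.0e-04) and Acadl (0.14 ± 0.03, adjusted p = 0.0021) and the lipid droplet gene Plin2 rose less. Of 14 epoxide hydrolases and eicosanoid partners 10 were tested, 3 rose and 2 fell. The soluble epoxide hydrolase Ephx2, which opens the epoxides that Cyp2j and Cyp2c enzymes make, rose from a mean of 255 to 284 FPKM (0.16 ± 0.04, limma, adjusted p = 0.017), and the thromboxane synthase Tbxas1 fell by 0.46 log2 ± 0.06 (adjusted p = 8.5e-06). Of 14 genes of other P450 families 10 were tested. Cyp51, of cholesterol synthesis, rose from a mean of 21.1 to 30.3 FPKM (0.49 ± 0.09, limma, adjusted p = 4.4e-04), and Cyp27b1, the renal enzyme of vitamin D activation, fell from 1.88 to 1.01 FPKM (-0.60 ± 0.16, adjusted p = 0.0079).

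Markers of nephron segments were compared beside these results. Of 13 proximal tubule markers 2 rose and 3 fell, with a median change of -0.01. Of 7 markers of its straight part 2 rose and 1 fell, with a median of 0.19, and their summed level was 498 to 982 FPKM under chow and 658 to 1109 FPKM under the high-fat diet. With the mean of these 7 as a covariate, 12 of the 13 members that changed in level still passed, Cyp2j5 being the exception.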

How the data were processed

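RNA of whole kidneys was measured in 36 libraries, 18 per diet. Extraction used TRIzol and library preparation a TruSeq RNA v2 kit, per the labels' protocols. The processing tools were CASAVA 1.8.2, Bowtie and Cuffnorm, and the genome build was mm10, per the submitters' processing notes. The authors deposited FPKM, 1 table per diet with the same 24883 rows. Whether 1 Cuffnorm run made both tables is not given in the sources used here, and a difference between runs could not be told apart from diet. The level comparison was made because the mean median log2 ratios of the tables (0.018 for chow, -0.014 for high-fat) lay within 0.05.

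From these values, 817 rows of 280 repeated symbols were left out, and the 12431 genes with a mean of at least 0.5 FPKM were tested as log2(FPKM + 0.5) with limma 3.58.1 in R 4.3.3 (mean-variance trend, Benjamini-Hochberg threshold 0.05). Total read numbers were not analysed here; 95.4% of the low values of 1580 genes lay within 0.05 of a whole multiple of 1 step, which gave relative depth and, with GENCODE M21 transcript lengths, the estimated fragments. Coordinates are GENCODE M21 on GRCm38, counted from 1. Promoters came from RefSeq (22 of the 33 members matched), ratios were tested with 100000 permutations, and scripts were tested on simulated data.

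The members and lists were chosen with earlier results of these data known. All described members are named; Cyp4a, Cyp2j and Cyp2e members and those past the threshold in any test are given in full, and of each list up to 4 genes with the smallest p. Some genes that this rule takes are left out of the text, but stayed in every test and count. Alternatives were other pseudocounts, filters and rescalings, a GC trend, a replicate block, a robust prior, array weights, time as a factor, an adipocyte covariate, leaving out libraries with adrenal transcripts, ZT0 and ZT4, or each library in turn. Chosen after seeing the data were a straight tubule covariate, leaving out together the libraries with the highest Cyp4a14 and the lowest Cyp2b10, the ratios and the correlations.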

Additional observations from a re-analysis of the deposited data

How the results depend on the processing

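Of 33 members 7 were higher and 6 lower, and these calls kept their direction under every alternative run for them. Cyp4b1, Cyp4b1-ps2, Cyp2a5, Cyp2d12, Cyp2s1, Cyp2f2 and Cyp2b10 kept their level call wherever they were tested. The number higher was 3 with the adipocyte covariate and 9 with either rescaling, where Cyp4a10 and Cyp2j6 passed, and the number lower was 3 with a mean of at least 5 FPKM, where fewer members were tested. The 9 calls at single times became 5 without a filter, 5 with a replicate block and 14 without the 4 libraries with adrenal transcripts. The last fit left 1 chow library at ZT4, and its count is not a measure of more change. Its gained calls were Cyp2d26, Cyp2j11, Cyp2j5, Cyp2j9 and Cyp4a31 at ZT4, which rest on that library, and Cyp2s1 at ZT0. The 5 rhythmic members under chow became 2 without a filter, 3 with a replicate block, 2 with the replicate block and the GC trend removed, 3 without the libraries with adrenal transcripts, 2 without ZT0 and ZT4, and 1, Cyp2a5, with time as a factor. The 3 under the high-fat diet became 1 with a mean of at least 5 FPKM, 1 with the replicate block and 1 without ZT0 and ZT4, and were 4 with time as a factor (Cyp2j5 and Cyp2d26 gained, Cyp2s1 lost), so the order of the diets' counts depends on that choice. With the replicate block and the GC trend removed they were 3, with Cyp2j13 and Cyp4f17 in place of Cyp2s1 and Cyp2j9. Members whose diet difference varied over time went from 0 to 3 (Cyp2j5, Cyp2j9, Cyp4b1-ps2) without the libraries with adrenal transcripts, beside 15.0% of all genes, a fit in which chow ZT4 held 1 library. The cause of these shifts was not tested. Leaving out 1 library at a time gave 5 to 8 higher, 5 to 8 lower, 4 to 9 calls at single times, 2 to 5 rhythmic members under chow and 2 to 4 under the high-fat diet, and 0 for both differences over time.

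Deviations of same-numbered libraries of the 2 diets correlated between -0.254 and 0.232 over 12 pairs, 5 of them over 0.1, and 7 of 36 libraries correlated best with their own number, so the numbers were taken as names. With the replicate block the same 13 members passed in level. Rescaling moved the median change of all genes by less than 0.1 log2. Depth limits Cyp2b10, Cyp4f14, Cyp4f18, Cyp2d10 and Cyp2r1, each with an estimated median under 30 fragments per library.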
